A study of Capra hircus with 9 samples.

Results

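The interferon response genes described here are ISG15, MX1, MX2, RSAD2, IFI44, IFIT2, IFIT3, IRF1 and IRF7, 9 of the 23499 genes in the deposited table of goat mammary gland expression. They were chosen by gene symbol, and each symbol was found once. The samples were 9 libraries of mammary tissue from 9 healthy Laoshan dairy goats of about 4 years in the third parity, kept on one farm under the same feeding. Of these, 3 goats were in late lactation (LL, 240 days postpartum), 3 in the dry period (DP, 300 days postpartum) and 3 in late gestation (LG, 140 days after mating). No goat received an experimental treatment, and the stage was the only factor. Each library came from the whole tissue of a different goat, so in what follows fewer cells of a type and less RNA per cell cannot be told apart.

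Interferons are secreted proteins by which infected or stressed cells warn their neighbours. Binding to receptors activates the kinases JAK1 and TYK2 and, through them, STAT factors that work with IRF9 to switch on a common set of antiviral genes. IRF1 and IRF7 are transcription factors of the IRF family that take part in this switch and are themselves induced by it. The other 7 genes encode effectors of the response, some of which block viral entry, RNA or protein synthesis. In ruminants some of these genes are also known as responders to interferon tau, the signal that the early conceptus sends to the mother. Mammary tissue holds epithelial cells, stroma, vessels and leukocytes, all of which can carry the response.

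Expression was read as FPKM, a read count corrected for gene length and library size, with 1 value per gene and library. How many reads stand behind a value is unknown, and counting error could not be given. The summed FPKM of a library ranged from 601250.2 to 1157014.7. Each library was divided by its median-ratio factor (for LL 0.498 to 0.606, for DP 1.44 to 1.53 and for LG 1.198 to 1.31), and the quotient is called scaled FPKM below. On unscaled log2(FPKM + 1) values, the median gene tested differed by 1.09 in DP against LL and by 0.93 in LG against LL. In LG against DP it differed by -0.18. The added 1 makes these shifts smaller than they are on FPKM itself. Differences were tested with limma on log2(scaled FPKM + 1) over 14701 genes. This scale understates changes of genes near or under 1 FPKM. A gene was called at a Benjamini-Hochberg adjusted p under 0.05 over all genes tested if its log2 fold change was also 1 or more in size. The summed scaled FPKM of 7 luminal epithelial markers was at least 345.7 in every library, and that of CSN2 and LALBA was 163600 to 264200 for LL, 3843 to 5297 in LG and 14.9 to 35.8 in DP, so the tissue carried its defining markers.

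**Figure D1:**
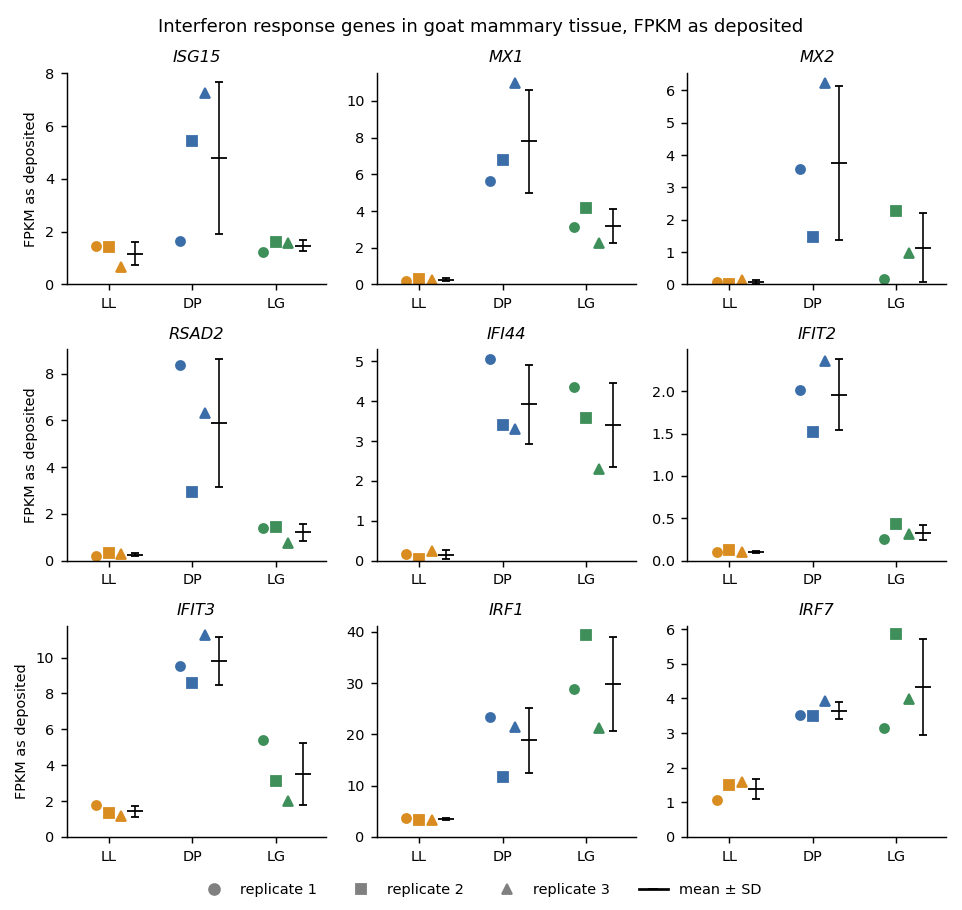
FPKM as deposited (y axis, linear from 0, one scale per gene) of the 9 genes in LL, DP and LG; each symbol is a library and bars give mean ± SD over 3 goats. All 9 genes lie higher in every DP library than in every LL library on this scale, as do 12344 of the 14701 genes tested. On unscaled log2(FPKM + 1) values the median gene tested is also shifted upward by 1.09, less than on the FPKM shown.

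MX1, MX2, RSAD2, IFI44 and IFIT3 were higher in the dry period than in late lactation, whereas ISG15 and IRF7 did not pass the test in any comparison. In DP against LL, 5 of the 9 genes rose after scaling (MX1, RSAD2, MX2, IFI44 and IFIT3) and 0 fell, where 13.8% of all genes tested were called higher and 8.79% lower. The median log2 fold change of the 9 genes was 1.10, against 0.004 for all genes tested. In LG against LL, 3 rose (IRF1, IFI44 and MX1) and 0 fell, against 10.7% and 6.61% of all genes, with a median of 0.41 against 0.019. In LG against DP, 2 fell (RSAD2 and IFIT3) and 0 rose, against 6.88% and 6.37% of all genes, with a median of -0.85 against 0.008. The 3 comparisons share their libraries in pairs and are not independent of each other. All 9 genes passed the filter of at least 0.5 FPKM in at least 3 libraries, but MX1, MX2, RSAD2, IFI44 and IFIT2 had 0 LL libraries at that level, and IFIT2 passed through its 3 DP libraries alone. Without scaling 8 genes were called in DP against LL and 6 in LG against DP. In LG against DP 1 gene was called higher and 3 lower without DP replicate 1, 0 and 1 without DP replicate 3, and 1 and 1 without LG replicate 3.

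**Figure D2:**
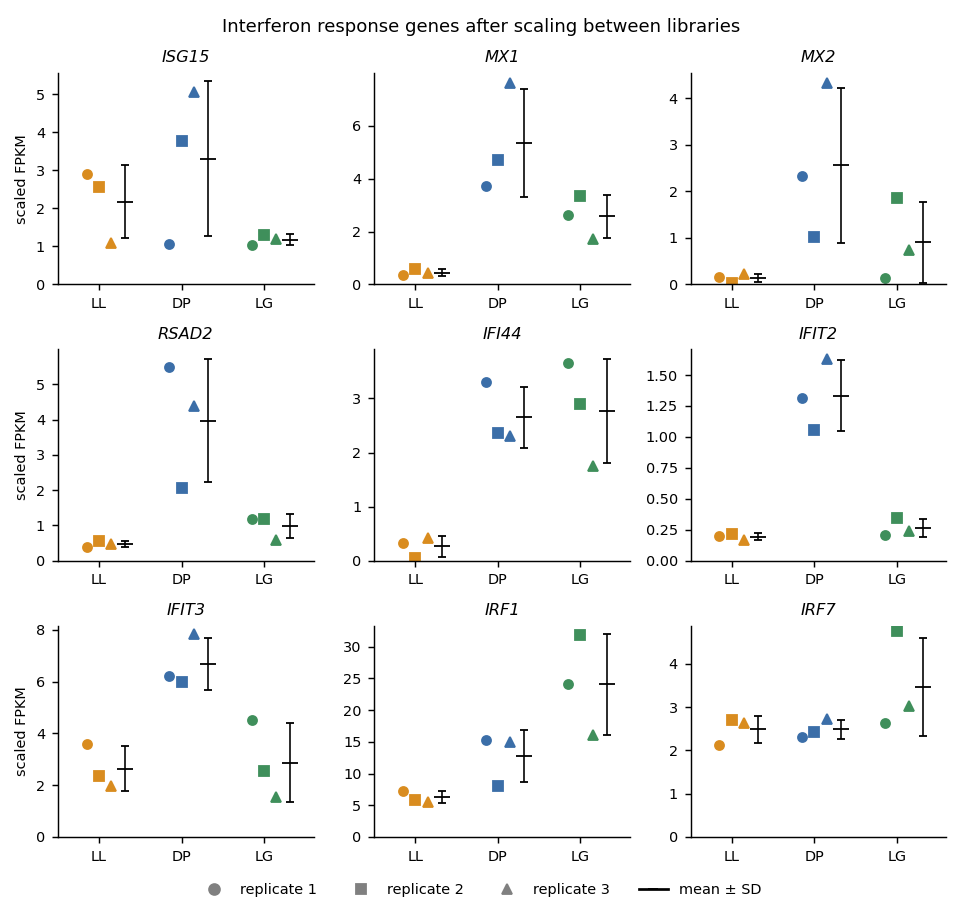
Scaled FPKM (y axis, linear from 0, one scale per gene) of the same genes and libraries, with mean ± SD over 3 goats. MX1, RSAD2, IFIT2 and IFIT3 are highest in DP, IRF1 is highest in LG, DP and LG overlap for IFI44, and all 3 stages overlap for ISG15 and IRF7.

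IRF1 (gene ID 102188583, chromosome 7, 88630486 to 88637730), the founding member of the IRF family and a target of interferon gamma, was the most abundant of the 9 genes in every stage. It was at 3.63, 3.26 and 3.37 FPKM in LL replicates 1, 2 and 3, at 23.4, 11.6 and 21.4 in DP and at 29.0, 39.4 and 21.2 in LG. After scaling the order of the stages was LL, DP, LG without overlap, at means of 6.25, 12.8 and 24.1 scaled FPKM, although LG replicate 3 (16.1) was close to DP replicate 1 (15.3). IRF1 rose by 1.75 on the log2 scale (SE 0.28, adjusted p = 0.000879) in LG against LL. In DP against LL the change was 0.88 (adjusted p = 0.0229) and in LG against DP it was 0.86 (adjusted p = 0.0381), both under the fold threshold. The first of these was called without scaling (2.11) or without DP replicate 2 (1.16), and the second without DP replicate 1 (1.01) or LG replicate 3 (1.12). A gene on the opposite strand, LOC108636385, overlaps IRF1 over 5715 bases, and the library kit does not keep the strand, so reads of the shared stretch cannot be assigned to one gene. LOC108636385 was at 0.193 ± 0.0808 FPKM in the LL libraries, 5.36 ± 0.266 in DP and 14.3 ± 3.09 in LG (SD over n = 3 goats), below IRF1 in every library and in the same order of stages.

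IRF7 (gene ID 106503773, chromosome 29, 45828394 to 45831518), which drives the second wave of interferon production, passed the test in 0 of the 3 comparisons. Its values were 1.06, 1.5 and 1.59 FPKM in the LL libraries, 3.52, 3.50 and 3.92 in DP and 3.15, 5.86 and 3.97 in LG. Scaling brought the stages together, at 2.49 ± 0.314 scaled FPKM in the LL libraries, 2.49 ± 0.216 in DP and 3.47 ± 1.13 in LG (SD over n = 3 goats), and the libraries of the 3 stages overlapped. DP against LL gave a log2 fold change of 0.0006, with a 95% interval of -0.38 to 0.38, so a change of 1 in either direction lay outside it. LG against LL gave 0.33 (95% interval -0.047 to 0.71, adjusted p = 0.129), and LG against DP gave 0.33 (95% interval -0.048 to 0.71, adjusted p = 0.157). Without scaling IRF7 was called higher in LG than in LL (1.14, adjusted p = 0.00025), a value that includes the shift of all genes.

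MX1 and MX2 encode dynamin-like GTPases that trap incoming viral nucleocapsids, and they lie next to each other on chromosome 1, 6390 bases apart on the same strand. MX1 (gene ID 102188635, 141239169 to 141274229) was at 0.17, 0.32 and 0.26 FPKM in the LL libraries, 5.66, 6.76 and 10.97 in DP and 3.15, 4.14 and 2.26 in LG. The 3 stages did not overlap, before or after scaling. MX1 rose in DP against LL, by 2.08 on this scale (SE 0.23, adjusted p = 7.88e-05) and a ratio of mean scaled FPKM of 11.9. It also rose in LG against LL (1.28, SE 0.23, adjusted p = 0.0018), a change of 0.85 and not called with quantile normalization. In LG against DP the change was -0.81 (adjusted p = 0.0239), under the fold threshold.

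MX2 (gene ID 108636422, chromosome 1, 141193475 to 141232778) was less abundant and varied more between goats. It was at 0.08, 0.02 and 0.13 FPKM in the LL libraries, 3.57, 1.47 and 6.22 in DP and 0.17, 2.28 and 0.96 in LG. LG replicate 1 stood at the LL level after scaling (0.142 scaled FPKM), whereas LG replicate 2 (1.85) was above DP replicate 2 (1.02). MX2 rose in DP against LL (log2 fold change 1.54, SE 0.38, adjusted p = 0.00684). Neither LG against LL (0.65, adjusted p = 0.178) nor LG against DP (-0.89, adjusted p = 0.0938) passed the test. The latter was called without DP replicate 2 (-1.24), LG replicate 2 (-1.23) or scaling (-1.15).

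RSAD2 (gene ID 102190797, chromosome 11, 89640199 to 89658757) encodes viperin, a radical SAM enzyme that makes a chain-terminating nucleotide. It was at 0.19, 0.31 and 0.29 FPKM in the LL libraries, 8.38, 2.96 and 6.31 in DP and 1.40, 1.45 and 0.77 in LG, with no overlap between the stages on either scale. RSAD2 rose in DP against LL by 1.69 (SE 0.25, adjusted p = 0.000477) and in LG against DP it fell by 1.28 on the log2 scale (SE 0.25, adjusted p = 0.0042). LG against LL gave 0.41 (95% interval -0.16 to 0.98, adjusted p = 0.206) and -0.18 with quantile normalization. CMPK2, a nucleotide kinase gene 11974 bases away on the opposite strand and known to be induced together with RSAD2, was at 0.25, 0.51 and 0.04 FPKM in the LL libraries, 10.78, 4.54 and 12.01 in DP and 1.90, 1.96 and 1.52 in LG. Its log2 fold changes were 2.22 in DP against LL (adjusted p = 0.000255) and -1.48 in LG against DP (adjusted p = 0.00483). Both genes were thus called in the same 2 comparisons, with DP replicate 2 lowest in DP for each.

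IFIT2 and IFIT3 encode tetratricopeptide proteins that bind viral RNA and each other, and they lie 9208 bases apart on the same strand of chromosome 26. IFIT3 (gene ID 102168968, 40303996 to 40311119) was at 1.79, 1.31 and 1.18 FPKM in the LL libraries, 9.52, 8.61 and 11.3 in DP and 5.42, 3.12 and 2.01 in LG. After scaling every DP library (5.97 to 7.83 scaled FPKM) lay above every LL and LG library (at most 4.53), while LL and LG overlapped. IFIT3 rose in DP against LL (1.10, SE 0.27, adjusted p = 0.00703) and in LG against DP it fell by 1.06 on the log2 scale (adjusted p = 0.0138). Both changes are close to the threshold. The first was not called without LL replicate 3 (0.96) or DP replicate 3 (0.99), and the second missed it when DP replicate 3 (-0.95) or LG replicate 3 (-0.79) was left out, or with quantile normalization (-0.97). LG against LL gave 0.037 (95% interval -0.57 to 0.64).

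IFIT2 (gene ID 102169450, chromosome 26, 40320328 to 40329156) had the lowest mean of the 9 genes in DP and LG. It was at 0.10, 0.12 and 0.10 FPKM in the LL libraries, 2.01, 1.52 and 2.35 in DP and 0.25, 0.43 and 0.31 in LG. The ratio of mean scaled FPKM was 6.87 for DP over LL and 0.198 for LG over DP, and DP overlapped neither stage. On the log2 scale with a pseudocount of 1 these were changes of 0.96 (adjusted p = 0.000311) and -0.88 (adjusted p = 0.00111), under the fold threshold. With a pseudocount of 0.1 they were 2.27 and -1.98 and both were called. IFIT2 was under 0.5 FPKM outside DP, so the filter admitted it only because it was high there.

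IFI44 (gene ID 102174179, chromosome 3, 55187646 to 55206942), an interferon-induced gene, rose against LL in both DP and LG. It was at 0.16, 0.03 and 0.25 FPKM in the LL libraries, 5.05, 3.40 and 3.31 in DP and 4.37, 3.57 and 2.29 in LG. Every DP and LG library exceeded every LL library, and DP and LG overlapped. The gene rose by 1.53 in DP against LL (SE 0.21, adjusted p = 0.000249) and by 1.55 in LG against LL (SE 0.21, adjusted p = 0.000314). LG against DP gave 0.019 with a 95% interval of -0.45 to 0.48, and its sign changed without scaling (-0.17) and without any one of DP replicates 2 and 3 and LG replicates 1 and 2. Its neighbour IFI44L, 15831 bases upstream on the same strand, was at 1.56 ± 0.0608, 8.41 ± 1.67 and 7.25 ± 1.32 FPKM in the LL libraries, DP and LG (SD over n = 3 goats), with changes of 0.80 and 0.82 against LL that stayed under the fold threshold.

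ISG15 (gene ID 102169982, chromosome 16, 49962961 to 49964077), which encodes a ubiquitin-like modifier that is conjugated to other proteins, showed no difference that passed the test. It was at 1.44, 1.41 and 0.66 FPKM in the LL libraries, 1.64, 5.45 and 7.27 in DP and 1.23, 1.61 and 1.58 in LG. After scaling DP replicate 1 (1.07 scaled FPKM) stood with the LG libraries (1.03 to 1.31) and LL replicate 3 (1.09), apart from DP replicates 2 and 3 (3.78 and 5.05). The log2 fold change was 0.35 for DP against LL (95% interval -0.47 to 1.17, adjusted p = 0.428), -0.50 for LG against LL (adjusted p = 0.287) and -0.85 for LG against DP (adjusted p = 0.1). Without DP replicate 1 the last of these was called (-1.31, adjusted p = 0.00496). Without scaling DP against LL (1.28, adjusted p = 0.00617) and LG against DP (-1.08, adjusted p = 0.0361) were called, and LG against LL changed sign (0.21). UBA7, the enzyme that activates ISG15 for conjugation, rose in both stages, from 0.267 ± 0.135 FPKM in LL to 5.11 ± 0.914 in DP and 6.26 ± 0.262 in LG (SD over n = 3 goats), with log2 fold changes of 1.58 and 2.02 (adjusted p = 3.52e-05 and 1.31e-05).

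**Figure D3:**
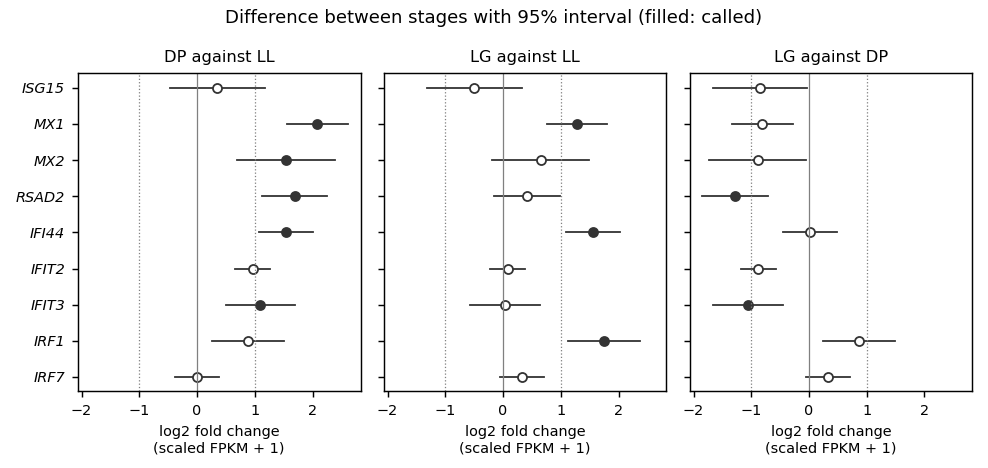
Log2 fold changes of log2(scaled FPKM + 1) (x axis) with 95% intervals for the 9 genes in the 3 comparisons; filled points were called and dotted lines mark a change of 1. In DP against LL, 5 points are filled, 3 in the LG to LL panel and 2 for LG against DP, the last of these to the left of 0.

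Read as FPKM, which is corrected for gene length, the deposited values gave an order of the 9 genes that differed between stages. No unit is named with the values, so a comparison between genes rests on that reading. In LL the order was IRF1, IFIT3, IRF7, ISG15, RSAD2, MX1, IFI44, IFIT2 and MX2, from 3.42 down to 0.0767 FPKM on average. Neighbours in this order overlapped in their libraries except IRF1 with IFIT3 and ISG15 with RSAD2, so that LL held 4 genes above 0.5 FPKM and 5 below. In DP the order was IRF1 (18.8), IFIT3 (9.80), MX1 (7.80), RSAD2 (5.88), ISG15 (4.79), IFI44 (3.92), MX2 (3.75), IRF7 (3.65) and IFIT2 (1.96). The genes between IFIT3 and IRF7 each overlapped the next. In LG IRF1 (29.8) stood far above IRF7 (4.33), IFIT3 (3.52), IFI44 (3.41) and MX1 (3.18), each of which overlapped the next. Then came ISG15 (1.47), which did not overlap MX1, RSAD2 (1.21), MX2 (1.14) and IFIT2 (0.330).

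The goats of one stage did not rank the same way for every gene. In DP, replicate 3 was highest for 6 genes (ISG15, MX1, MX2, IFIT2, IFIT3 and IRF7) and replicate 1 for 3 (RSAD2, IFI44 and IRF1), on either scale. Replicate 2 was highest for 0 genes and lowest for 5 after scaling. In LG, replicate 2 was highest for 7 genes and replicate 1 for IFI44 and IFIT3, while replicate 3 was lowest for 5. In LL no replicate was highest for more than 4 genes. As a description over 9 libraries that share the stage differences, Pearson's r on the scaled log2 values was 0.94 between RSAD2 and IFIT2, 0.85 between MX1 and MX2, 0.84 between IFIT2 and IFIT3, 0.83 between IFI44 and IRF1 and 0.63 between IRF1 and IRF7, but 0.31 between ISG15 and MX1 and -0.12 between RSAD2 and IRF7.

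The wider pathway was followed in lists that held 120 symbols, of which 82 were in the table under that symbol and 77 were tested. For the counts below, the shares of all genes called higher and lower were 13.8% and 8.79% between DP and LL, 10.7% and 6.61% between LG and LL, and 6.37% and 6.88% between LG and DP. Of 36 other interferon-stimulated genes tested, 15 rose and 0 fell in DP against LL (median log2 fold change 0.80) and 11 rose and 0 fell in LG against LL (median 0.73), while in LG against DP 4 rose and 4 fell (median -0.23). CXCL10 and CXCL9, chemokines that attract T cells, had 0.123 ± 0.0153 and 0.08 ± 0.01 FPKM in the LL libraries, 6.92 ± 3.59 and 5.58 ± 4.07 in DP and 16.3 ± 9.08 and 4.46 ± 4.72 in LG (SD over n = 3 goats). The changes of CXCL10 were 2.12 for DP over LL (adjusted p = 0.00132), 3.40 for LG over LL (adjusted p = 0.000108) and 1.28 for LG over DP (adjusted p = 0.0264). The last lost its call without DP replicate 2 (0.92), LG replicate 1 (1.35, adjusted p = 0.0549) or LG replicate 2 (0.88), and with no filter (adjusted p = 0.0518) or these 2 stages alone (adjusted p = 0.0608). CXCL9 rose in DP against LL (1.91, adjusted p = 0.0112) and in LG against LL (1.69, adjusted p = 0.0212), the latter not called without any one LL replicate (1.67 to 1.70) or with quantile normalization (1.42, adjusted p = 0.0607).

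Some stimulated genes were higher in one non-lactating stage than in the other. HERC6, a ubiquitin ligase gene, was at 0.0900 ± 0.0436, 3.32 ± 0.687 and 0.397 ± 0.0907 FPKM in the LL libraries, DP and LG (SD over n = 3 goats). Its log2 fold change was 1.48 in DP against LL (adjusted p = 3.95e-05) and -1.30 in LG against DP (adjusted p = 0.000256). ISG20, an exonuclease gene, gave 1.30 (adjusted p = 8.49e-05) and -1.27 (adjusted p = 0.000279), the first 0.93 and not called with quantile normalization. ISG20 reached the filter through its 3 DP libraries alone and HERC6 through these and LG replicate 3, so that both were tested because they were high in DP. The opposite order was found for RTP4, IFI35 and XAF1. IFI35 was at 9.12 ± 1.82 FPKM in the LL libraries, 15.8 ± 1.63 in DP and 47.3 ± 8.22 in LG (SD over n = 3 goats), and rose in LG against DP by 1.72 (adjusted p = 0.000122) and in LG against LL by 1.15 (adjusted p = 0.000451), the latter falling to 0.999 and out of the calls without LG replicate 1. In DP against LL IFI35 gave -0.57 after scaling and 0.74 without it. RTP4 rose by 1.70 in LG against LL (adjusted p = 0.000469) and by 1.09 in LG against DP (adjusted p = 0.00732), the latter not called without LG replicate 1 (0.82). In DP against LL RTP4 gave 0.60 (limma adjusted p = 0.0578) and was not called, although every DP library lay above LL. With a pseudocount of 0.1 this was 1.15 and called, and with quantile normalization it was -0.085. XAF1, a gene of apoptosis, rose by 1.30 in LG against DP (adjusted p = 0.00604). Its 0.88 in LG against LL was called without LG replicate 3 (1.26) or with a pseudocount of 0.1 (1.08). It was also called without scaling (1.68, which includes the shift of all genes).

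Among 14 sensors of foreign nucleic acid and their adaptors tested, 4 rose in DP against LL and 4 in LG against LL, with 0 lower in each, and 2 rose and 1 fell in LG against DP. TLR3, a receptor for double-stranded RNA, rose by 1.79 in DP against LL (adjusted p = 7.85e-05) and by 1.60 in LG against LL (adjusted p = 0.000212). DHX58, a relative of the RNA sensor RIG-I, rose by 1.5 (adjusted p = 0.000322) and 1.83 (adjusted p = 0.000132), the first 0.92 and not called with quantile normalization. TMEM173, which encodes the adaptor STING, was listed at 0 in LL replicate 1 and at 0.24 and 0.17 FPKM in the other LL libraries, and at 5.82 ± 2.58 in DP and 2.21 ± 0.0814 in LG (SD over n = 3 goats). It rose by 1.96 in DP against LL (adjusted p = 6.90e-05) and by 1.18 in LG against LL (adjusted p = 0.00177), the latter 0.94 and not called with quantile normalization. ZBP1, a sensor of Z-form nucleic acid, rose in LG, by 1.63 against LL (adjusted p = 0.0012) and 1.19 against DP (adjusted p = 0.009). TLR8, a sensor of single-stranded RNA in myeloid cells, was listed at 0 in LL replicates 1 and 2 and reached the filter through its 3 DP libraries alone. It rose in DP against LL (1.46, adjusted p = 0.000971) and in LG against DP fell by 1.22 on the log2 scale (adjusted p = 0.00469).

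The 3 interferon genes that were found had low values. Of the 13 ligand symbols searched, IFNG, IFNE and IFNK were in the table. The alpha, beta, omega, lambda and tau genes had no match under the symbols searched, so their level is unknown. IFNG read 0 to 0.06 FPKM in LL, at most 0.21 in DP and at most 0.29 in LG and did not pass the filter. IFNE was listed at 0 in every library except LG replicate 2 (0.07). IFNK, a keratinocyte interferon, was at 0.05 to 0.43, 0.49 to 1.07 and 0.34 to 0.50 FPKM in the LL libraries, DP and LG, and its log2 fold changes of 0.16, -0.083 and -0.24 in the order of the comparisons did not pass the test.

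Of 11 receptor and signal genes tested, DP against LL had 2 that rose and 1 that fell, LG against LL 1 and 2, and LG against DP 0 and 3 (median -0.78). IFNAR1 and IFNAR2, the subunits of the receptor for interferons alpha, beta and tau, were at 2.48 ± 0.323 and 1.26 ± 0.458 FPKM in the LL libraries, 15.4 ± 3.14 and 10.7 ± 2.78 in DP and 5.95 ± 0.338 and 3.82 ± 1.05 in LG (SD over n = 3 goats). IFNAR2 rose by 1.34 in DP against LL (adjusted p = 0.000968) and in LG against DP fell by 1.02 on the log2 scale (adjusted p = 0.00725), the latter losing its call when DP replicate 1 (-0.87) or LG replicate 3 (-0.82) was left out, or with quantile normalization (-0.99). IFNAR1 rose by 1.04 in DP against LL (adjusted p = 0.000309), which was not called without LL replicate 2 (0.95) or DP replicate 1 (0.93). Its -0.97 in LG against DP was called without DP replicate 2 (-1.09) or LG replicate 2 (-1.0001). This change was also called with quantile normalization (-1.07), a pseudocount of 0.1 (-1.10) or no scaling (-1.22, which includes the shift of all genes). IFNGR1, a subunit of the interferon gamma receptor, had 26.7 ± 7.04, 73.2 ± 1.58 and 21.2 ± 4.02 FPKM (SD over n = 3 goats) in LL, DP and LG. It dropped by 1.44 on the log2 scale in LG against LL (adjusted p = 0.000284) and by 1.51 in LG against DP (adjusted p = 0.000399). Without scaling the first was -0.30 (adjusted p = 0.226) and not called.

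STAT2, a partner of IRF9 in the complex that type I interferons activate, was at 2.66, 2.59 and 3.85 FPKM in the LL libraries, 15.01, 12.12 and 13.74 in DP and 9.39, 11.36 and 9.33 in LG. Its log2 fold changes against LL were 0.67 in DP and 0.49 in LG (adjusted p = 0.0032 and 0.0171), under the fold threshold. IRF9 gave 0.58 in DP against LL (adjusted p = 0.00866) and -0.86 in LG against DP (adjusted p = 0.002). The latter was called without LG replicate 2 (-1.01), with quantile normalization (-1.10) or without scaling (-1.10). The value of IRF9 follows that of its neighbour RNF31 at a fixed distance per library in the table, and those of JAK1 and JAK2 follow other neighbours, so these are not separate measurements. As listed, JAK1 had log2 fold changes of -1.02 in DP against LL and -1.06 in LG against LL, and JAK2 had -1.32 in LG against DP. JAK1 was not called in DP against LL without LL replicate 2 (-0.94) or DP replicate 3 (-0.97), and in LG against LL without LL replicate 2 (-0.98) or LG replicates 1 (-0.93) or 2 (-0.91). With quantile normalization these changes were -0.39 (adjusted p = 0.185) and -0.71, neither called. JAK2 was called in LG against LL without LL replicate 3 (-1.02). Of the 6 other IRF genes tested, 0 were called higher and 1 lower for each of DP and LG against LL, and LG against DP had 0 calls by limma (2 at an adjusted p under 0.05). The value of 1 of the 6 follows a neighbour in the same way. With all such genes left out, pathway genes called lower went from 2 to 0 in DP against LL and from 4 to 2 in LG against LL. The lower calls among these IRF genes are thus not separate measurements.

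Of 9 genes that restrain the response, DP against LL had 4 that rose and 0 that fell, LG against LL 1 and 1, and LG against DP 0 and 1. SOCS3, an inhibitor of JAK kinases that also answers to other cytokines, was at 2.42 ± 0.699 FPKM in the LL libraries, 26.0 ± 16.7 in DP and 1.82 ± 0.803 in LG (SD over n = 3 goats). Its log2 fold changes were 1.65 in DP against LL (adjusted p = 0.00443), -2.79 in LG against DP (adjusted p = 0.000538) and -1.13 in LG against LL (adjusted p = 0.0287). The last was not called without LL replicates 2 or 3 or LG replicates 1 or 3 (-0.99 to -1.07), with no filter (adjusted p = 0.0559) or without scaling (-0.29). SOCS1 rose by 1.23 in DP against LL (adjusted p = 0.000142), and PIAS4, an inhibitor of STAT proteins, by 1.22 in DP (adjusted p = 2.56e-05) and 1.39 in LG (adjusted p = 1.91e-05) against LL. With quantile normalization these were 0.86, 0.70 and 0.94, none of them called.

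Markers of other cell types differed between stages as well, beside 13.8% of all genes called higher in DP and 10.7% called higher in LG against LL, and 6.88% called lower in LG against DP. The shares of all genes called lower against LL were 8.79% in DP and 6.61% in LG. PTPRC, which encodes the pan-leukocyte antigen CD45, was at 7.19, 5.35 and 6.82 scaled FPKM in the LL libraries, 36.7, 19.1 and 13.2 in DP and 8.69, 10.5 and 6.41 in LG. Of 4 pan-leukocyte markers tested, 3 rose in DP against LL, and their summed level was 24.2 to 33.4 scaled FPKM in the LL libraries, 44.9 to 110.7 in DP and 22.8 to 41.2 in LG. Of 7 T and NK cell markers, 6 rose in DP and 4 in LG against LL, with sums of 6.21 to 7.12, 26.4 to 75.1 and 18.1 to 30.0 in LL, DP and LG. Of 8 macrophage and monocyte markers, 3 rose in DP against LL, 0 rose and 2 fell in LG against LL, and 6 fell in LG against DP. Their sums were 103.7 to 110.8, 139.9 to 151.6 and 77.0 to 82.4 in LL, DP and LG. Of 4 granulocyte markers, 0 were called in DP against LL, while 1 rose and 2 fell in LG against LL. The sums were 8.37 to 23.1, 10.3 to 38.0 and 4.67 to 11.97. The sum of the 5 B lineage markers lay at 189.5 to 834.2 for LL, 38.3 to 136.0 for DP and 10.7 to 22.6 for LG, and the 1 of them that passed the filter was called lower in each comparison. Of 2 plasmacytoid dendritic cell markers in the table, only IL3RA was tested, and it rose in DP against LL (1.72, adjusted p = 0.000153). IL3RA reached the filter through its 3 DP libraries and LG replicate 1, so it was tested because it was high in DP. Of 6 fibroblast markers, 5 rose in DP and 2 in LG against LL, with sums of 211.7 to 323.7, 502.5 to 2392 and 521.4 to 954.4. Of 7 luminal epithelial markers, 0 rose and 1 fell in DP against LL. Their sums were 882.8 to 1151, 345.7 to 650 and 835.1 to 1000 in LL, DP and LG. No marker in these lists was at 0 in every library.

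**Figure D4:**
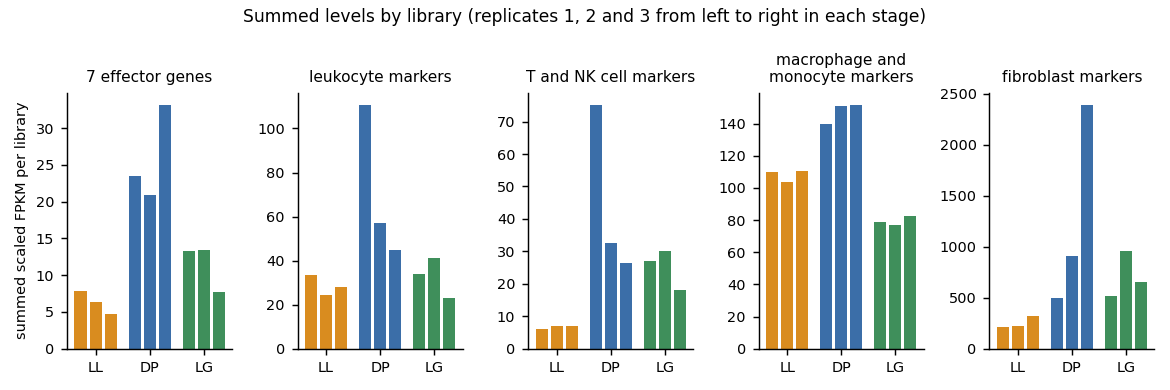
Summed scaled FPKM per library (y axis, linear from 0, one scale per panel) of the 7 effector genes and of 4 marker lists; bars are replicates 1, 2 and 3 of LL, DP and LG. In DP the leukocyte sum is highest in replicate 1 (110.7) and the effector sum in replicate 3 (33.1), and the T and NK cell sum is higher in every DP and LG library than in LL.

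The summed level of the 7 effectors was 4.74 to 7.90 scaled FPKM in the LL libraries, 7.75 to 13.5 in LG, and 23.5, 20.9 and 33.1 in DP replicates 1, 2 and 3. The pan-leukocyte sum in the same 3 DP libraries was 110.7, 57.2 and 44.9 and the T and NK cell sum 75.1, 32.7 and 26.4, so DP replicate 1 was highest in both. Of the 9 genes, DP replicate 1 was highest of DP for RSAD2, IFI44 and IRF1, lowest for ISG15, MX1 and IRF7, and in between for MX2, IFIT2 and IFIT3. The macrophage and monocyte sum was 139.9, 151.0 and 151.6, and the fibroblast sum 502.5, 906 and 2392. In LG the pan-leukocyte sum overlapped that of LL, and the T and NK cell sum (18.1 to 30.0) lay above that of LL (6.21 to 7.12). MX1, RSAD2, IFI44 and IRF1 also lay above LL in every LG library after scaling, as did 4554 of the 14701 genes tested. The part of cell composition in the stage differences was not tested.

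By the scaled log2 values over the 9 libraries, the genes most like each of the 9 were named as a description. CXCL10 was most like IRF1 (Pearson's r = 0.98). MILR1 and TNFSF13B, the latter encoding the B cell factor BAFF, were most like RSAD2 (0.98 each), SLC16A14, ADAM8 and IRAK3 were most like IFIT2 (0.99 each), and TCEAL9 (0.99), PARP16 (0.99) and PEAK1 (0.98) were most like MX1. For IFI44 these were SFXN4, LOC102191753 and CCDC51 (0.99 each), and for MX2 PXDC1 (0.98), TLN1 and ID3 (0.97 each). IFIT3 was most like IL3RA, TRNAI-UAU (0.93 each) and C7H19orf66 (0.93). The highest values for ISG15 (PGK1, RGS5 and LOC102176799, 0.91 to 0.92) and IRF7 (ZSWIM8, LOC102178801 and DDR1, 0.90 to 0.92) were lower. FOXQ1 completed the 3 for RSAD2 (0.97), and LOC102180758 and LOC102169978 those for IRF1 (0.97 each).

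**Figure D5:**
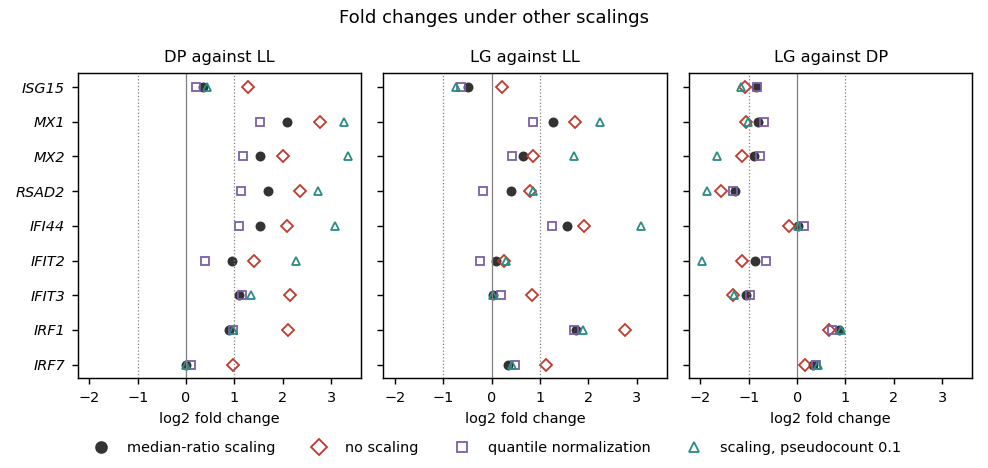
Log2 fold changes (x axis) of the 9 genes in the 3 comparisons under median-ratio scaling (filled circles), no scaling (diamonds), quantile normalization (squares) and a pseudocount of 0.1 (triangles); dotted lines mark a change of 1. For IRF7 in DP against LL the value is 0.0006 with scaling and 0.97 without, while MX1 is above 1 in every setting shown for that comparison.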

How the data were processed

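Mammary RNA of the 9 goats was sequenced from TruSeq v2 libraries. Per the labels, the tools were FastQC, Trimmomatic, HISAT2, SAMtools and HTSeq, and the paper names StringTie for quantification. The deposited table holds 9 value columns, 1 per library, made by the authors from their alignments and read here as FPKM. All 9 were used. The header names neither unit nor build, and each total differs. With HTSeq in the labels and StringTie in the paper, the tool behind the deposited gene values is not settled. Coordinates are those of the table, and all 9 gene identifiers matched RefSeq ARS1.2. No sequence was given, so the search for promoter motifs was not run.

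Values were divided by median-ratio factors from 15905 genes, 1 was added and log2 taken. The 14701 genes that reached 0.5 FPKM in 3 or more libraries were fitted in limma 3.58.1 under R 4.3.3, with moderated variances and a mean-variance trend, all libraries together, no covariates. Sums, ranges and correlations used Python 3.11.15, numpy 2.4.6 and pandas 2.3.3. On simulated data with 14604 genes tested in DP against LL, 97 of 100 genes changed by 3 (log2) and 89 of 100 changed by 1.5 were called, with 2 false calls. The changed genes were drawn from those with a mean log2(scaled FPKM + 1) above 2, so these shares do not cover genes near or under 1 FPKM. Of all genes, 1510 follow a same-strand neighbour's value to within 1% of their range; none of the 9 does.

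The genes and lists were chosen with earlier results of these data known. Named besides the 9 are STAT2, IRF9, the ligands, up to 3 called genes per list, comparison and direction whose higher stage averaged 2 FPKM or more without overlap, and the 3 most correlated genes. PTPRC, IFI44L, RNF31, LOC102168687, LOC102168412 and LOC108636385 were added after the values were seen. Some genes of the rule are not reported here. Alternatives covered scaling, pseudocount, filter, libraries, the replicate number, the trend, the call rule and linked genes.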

Additional observations from a re-analysis of the deposited data

How the results depend on the processing

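Of the 9 genes, the comparison of DP with LL called 5, that of LG with LL 3 and that of LG with DP 2. Without scaling these counts were 8, 4 and 6, with quantile normalization 5, 2 and 1, with a pseudocount of 0.1 6, 3 and 4, and by the adjusted p alone 7, 3 and 5. Leaving out 1 library gave 4 to 6, 3 to 3 and 1 to 4, the 4 without DP replicate 1 and the 1 without DP replicate 3. The filters, the 2 stages alone, no trend and the removal of linked genes changed none of the 3 counts. Of the pathway genes 27, 21 and 15 were called. Without scaling the pathway genes called were 59, 47 and 21, with quantile normalization 22, 14 and 17, and by the adjusted p alone 50, 46 and 33. Leaving out 1 library gave 21 to 29, 15 to 22 and 12 to 16. Calls in LG against LL were 17 higher and 4 lower with scaling, and 47 and 0 without; in LG against DP they were 6 and 9, and 6 and 15. The goats are different animals and the replicate number is only a name (correlation of same-numbered deviations from the stage means -0.106 to 0.201). With the replicate number as a block the counts were 5, 3 and 2 for the 9 genes and 27, 22 and 15 for the pathway genes.

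Signs changed as follows, and the cause was not tested. Without scaling, LG against LL gave 0.21 for ISG15, 0.79 for IRF9, 0.19 for IFNK, 0.096 for JAK1 and 0.30 for JAK2, DP against LL gave 0.74 for IFI35, 0.47 for XAF1 and 0.36 for JAK1, and LG against DP gave -0.17 for IFI44 and -0.011 for PIAS4. With quantile normalization, LG against LL gave -0.18 for RSAD2, -0.24 for IFIT2, -0.062 for HERC6 and -0.26 for ISG20, DP against LL gave -0.40 for IFNK, -0.085 for RTP4 and -0.079 for ZBP1, and LG against DP gave 0.029 for IFNK. Leaving out 1 library, ranges that crossed 0 were -0.15 to 0.23 for IFI44, -0.86 to 0.20 for CXCL9 and -0.32 to 0.12 for JAK1 in LG against DP, -0.26 to 0.31 for IFIT3, -0.26 to 0.082 for IFNK, -0.069 to 0.16 for ISG20 and -0.022 to 0.16 for IFNAR1 in LG against LL, and -0.076 to 0.047 for IRF7, -0.021 to 0.32 for IFNK and -0.0603 to 0.25 for IFNGR1 in DP against LL. The read depth is unknown, so the precision of values under 0.5 FPKM, where 5 of the 9 genes lie in LL, could not be given. The planned search for motifs in promoters was not run, since no sequence was at hand. Without a DP library IFIT2 missed the filter, and 8 of the 9 genes were tested.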

Other observations

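Beside IFIT3 the table lists LOC102168687 and LOC102168412, which were looked up after the values were seen and carry no gene name there. LOC102168687 was at 2.28, 1.69 and 1.38 FPKM in LL replicates 1, 2 and 3, while DP gave 4.14, 5.25 and 14.25 and LG gave 2.66, 2.56 and 2.16. LOC102168412, which overlaps it in position, was higher in every library by a round amount, with 3.28 FPKM in LL replicate 1 and 15.75 in DP replicate 3. The values of these 2 genes are therefore not separate measurements. DP replicate 3 was highest for LOC102168687, as it was for IFIT2 and IFIT3. The log2 fold change of LOC102168687 in DP against LL was 0.45 (limma adjusted p = 0.30) and did not pass the test.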
